A study of Mus musculus with 8 samples.

Results

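The Period genes Per1, Per2 and Per3 encode the PER proteins of the circadian clock. They were followed through every probe set whose single gene symbol in the platform annotation was one of these names. That gave 10 of the 45101 probe sets on the array: 1 for Per1, 3 for Per2 and 6 for Per3. The rule that picks the probe sets uses gene names, while the genes themselves were chosen with earlier results of these data known. Expression was measured on 8 arrays of 7438 cells, a mouse mammary line that carries a green fluorescent glucocorticoid receptor (GFP-GR) and a cherry fluorescent estrogen receptor (Ch-ER) under a tetracycline-regulated promoter. All 4 groups carried both transgenes, were held in charcoal-stripped serum from 48 hours before the experiment, and had tetracycline withdrawn for 24 hours to switch the receptors on. The Dex group received 100 nM dexamethasone, a synthetic glucocorticoid. The E2 group received 100 nM estradiol, the Dex+E2 group received 100 nM of each, and the untreated group received no hormone. RNA of the hormone groups was taken after 2 hours, and each of the 4 groups had 2 arrays. The titles of the untreated arrays name no hours and no vehicle. An effect of vehicle or handling shared by the hormone groups therefore cannot be told apart from the hormones. This holds for the differences from untreated and for the interaction of the hormones. Separate cultures are not named in the labels, and the p-values therefore cover only the spread of these arrays, which may be technical. At 1 time point a rise in RNA cannot be placed within a daily cycle.

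PER proteins bind the cryptochromes CRY1 and CRY2, and the complex enters the nucleus and represses CLOCK and BMAL1, the activators that drive Per and Cry transcription through E-box sequences. Casein kinase 1 phosphorylates PER proteins and marks them for degradation, which helps to set the pace of the cycle. Per1 and Per2 also respond quickly to outside signals, glucocorticoids among them, and this lets hormones shift the clock of peripheral tissues. Per3 contributes less to the core rhythm in mice.

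Promoter windows are shown because Per1 had the largest hormone responses of the family while Per3 had none past the threshold. Each window runs from 250 bases before to 50 bases after a transcription start, 5′ to 3′ on the gene's strand, from RefSeq (mouse GRCm38.p6). The table held 3 windows for 2 of the 3 genes, 2 of them for Per1. Per2 is not shown. Capitals mark matches to any motif searched.
Per1 start 1, chr11:69098699-69098998, plus strand: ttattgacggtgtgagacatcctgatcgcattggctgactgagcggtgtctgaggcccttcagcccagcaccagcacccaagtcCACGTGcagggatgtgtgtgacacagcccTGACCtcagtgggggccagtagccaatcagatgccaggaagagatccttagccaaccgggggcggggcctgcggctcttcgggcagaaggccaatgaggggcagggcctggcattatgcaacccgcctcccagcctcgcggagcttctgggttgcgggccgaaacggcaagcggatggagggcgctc
Per1 start 2, chr11:69099902-69100201, plus strand: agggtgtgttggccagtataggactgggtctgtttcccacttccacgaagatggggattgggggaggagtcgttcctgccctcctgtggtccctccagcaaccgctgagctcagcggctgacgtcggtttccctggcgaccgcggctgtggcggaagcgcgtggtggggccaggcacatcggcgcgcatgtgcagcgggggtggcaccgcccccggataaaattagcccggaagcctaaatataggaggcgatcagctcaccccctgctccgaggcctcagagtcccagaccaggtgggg
Per3, chr4:151044616-151044915, minus strand: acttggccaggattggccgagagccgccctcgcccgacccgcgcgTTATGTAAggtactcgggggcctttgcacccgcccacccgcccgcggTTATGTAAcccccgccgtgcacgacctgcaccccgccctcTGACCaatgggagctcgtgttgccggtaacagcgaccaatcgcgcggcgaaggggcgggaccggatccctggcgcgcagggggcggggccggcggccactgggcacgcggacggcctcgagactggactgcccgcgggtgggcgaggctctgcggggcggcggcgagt
The motifs were searched on both strands in all 32851 windows of that table. The E-box CACGTG occurred 1 time in the window of Per1 start 1, beginning at base -166, and 7.15% of all windows held it. The letters GGTCA, a single arm of the estrogen response element, occurred 1 time each in the windows of Per1 start 1 (from -137) and Per3 (from -118). Both read as TGACC on the strand shown, and 40.5% of all windows held such a match. The D-box TTATGTAA, read by the output factors DBP, TEF, HLF and NFIL3, occurred 2 times in the Per3 window, from -205 and -158, and 0.938% of all windows held it. No window of Per1 or Per3 matched the E-box variant CACGTT (4.68% of windows), the glucocorticoid response element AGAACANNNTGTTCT (0.00913%), its single arm AGAACA (19%), the full estrogen response element GGTCANNNTGACC (0.07%) or the cyclic AMP response element TGACGTCA (1.79%). At the shares of the full glucocorticoid and estrogen elements almost every window lacks them, so their absence here tells little about either gene. Sequence outside these windows was not searched. These are matches of letters, not sites shown to be bound.

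Values are log2 signals as deposited, so a difference of 1 is a doubling. Levels should be compared within a probe set, because each binds its target differently. Differences were fitted with limma over 45037 probe sets, and a probe set was called changed at a Benjamini-Hochberg adjusted p under 0.05. Errors after ± are standard deviations of 2 arrays for levels and standard errors from limma for differences. The array medians ran from 5.58 to 5.66. Dex+E2 replicate 2 stood farthest from the other arrays, with a mean correlation of 0.9951 against 0.9963 to 0.9973 for the rest, and the standard deviation of the difference between replicates was 0.212 for Dex+E2 against 0.140 to 0.166 for the other groups. The labelled cell type was set against marker genes. Among luminal or general epithelial markers 1 of 5, Epcam at 66.1, lay above percentile 60 of all probe sets by mean signal. The others were Krt8 at 53.4, Krt19 at 37.4, Krt18 at 26.1 and the E-cadherin gene Cdh1 at 4.11. Of the mesenchymal or fibroblast markers 6 of 7 lay above percentile 60, up to Col1a2 at 99.8. So did 2 of 3 basal epithelial markers, Krt14 at 77.2 and Krt5 at 62.7, 1 of 3 immune markers, Cd3e at 60.9, 0 of 3 endothelial or adipose markers and 0 of 4 milk protein genes. Array data from whole cultures cannot tell fewer responding cells from less RNA per cell.

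Per1, the family member best known as an early glucocorticoid target, was higher with each hormone and with both. The signals of its only probe set, 1449851_at, were 9.32 and 9.17 with Dex, 8.62 and 8.50 with E2, 9.16 and 8.84 with Dex+E2, and 6.72 and 6.45 in untreated cells. All 6 arrays of hormone-treated cells lay above both untreated arrays, and the groups did not overlap. Both arrays lay above both untreated ones for 17.2% of all probe sets with Dex, 16% with E2 and 16.6% with Dex+E2. Per1 rose by 2.66 ± 0.13 with Dex, which is 6.31-fold (limma, Benjamini-Hochberg adjusted p = 1.012e-05). It rose by 1.97 ± 0.13 with E2, or 3.92-fold (adjusted p = 0.000589), and by 2.41 ± 0.13 with Dex+E2, or 5.33-fold (adjusted p = 3.4e-05). These 3 comparisons share the untreated arrays. By the size of the increase among all 45037 probe sets, Per1 stood at rank 10 with Dex, rank 1 with E2 and rank 5 with Dex+E2. It was called in all 51 alternative values of these 3 comparisons, which included leaving out each array in turn.

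**Figure D1:**
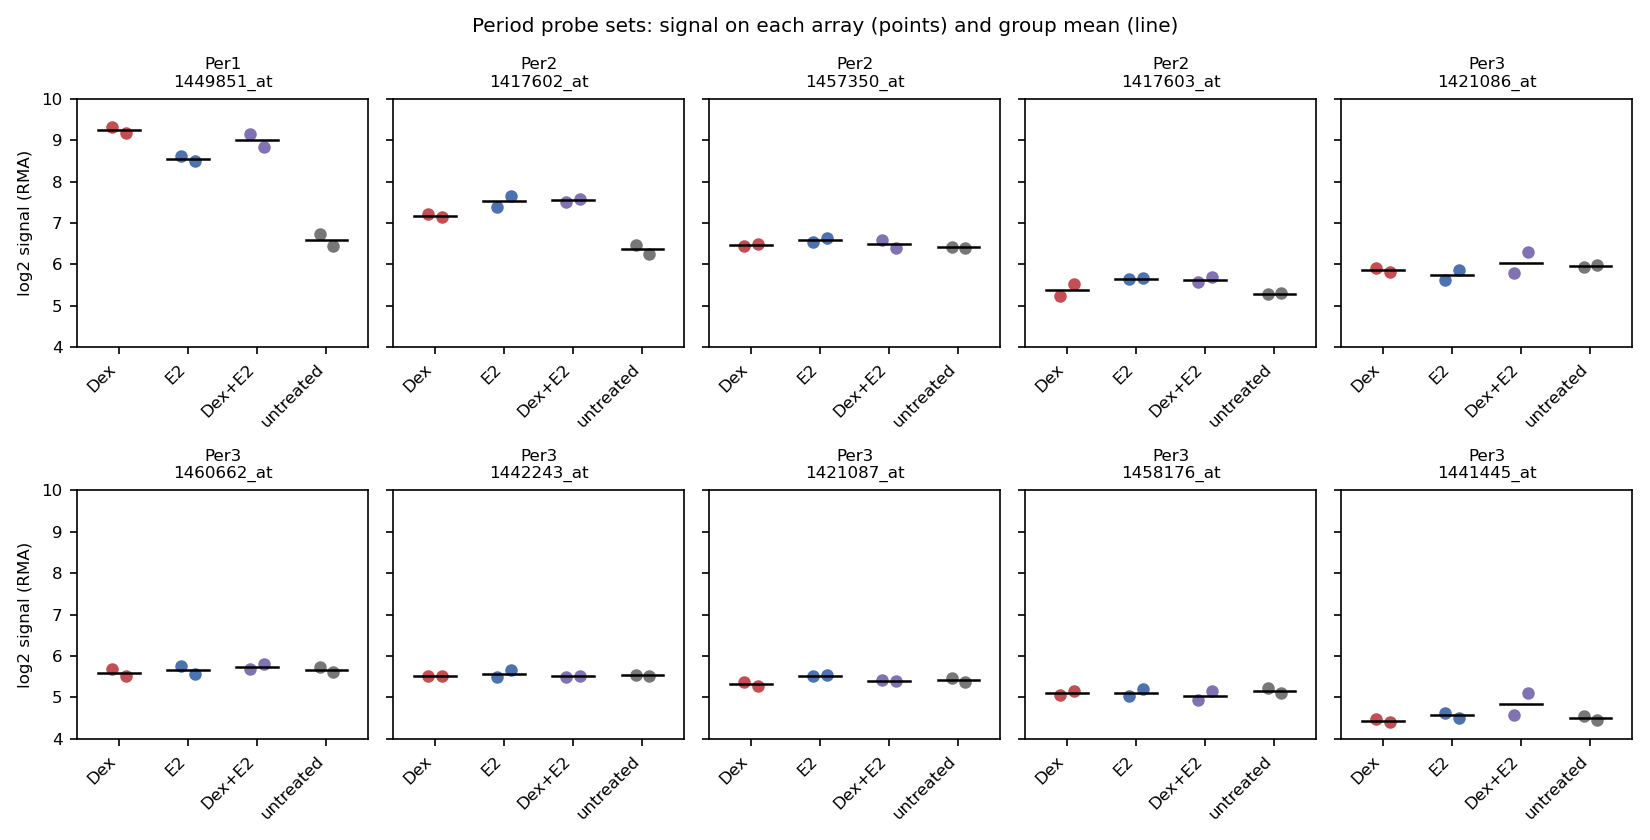
Log2 signal (y axis) of the 10 Period probe sets on each array (points; left point replicate 1, right point replicate 2) and the mean of each group (line, n = 2), with Dex, E2, Dex+E2 and untreated from left to right. The Per1 probe set and Per2 probe set 1417602_at lie higher in all 3 hormone groups than in untreated cells, and the other 8 were not called; levels are to be compared within a panel.

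The order of Per1 levels was Dex, Dex+E2, E2 and untreated, at means of 9.24 ± 0.11, 9.00 ± 0.23, 8.56 ± 0.083 and 6.59 ± 0.19 (SD, n = 2 each). Neighbouring hormone groups did not differ past the threshold. Dex+E2 was 0.24 ± 0.13 below Dex, a difference of -0.24 with a 95% interval from -0.53 to 0.05 (limma, Benjamini-Hochberg adjusted p = 0.996), with both Dex+E2 arrays below both Dex arrays, as for 16.1% of all probe sets. Dex+E2 exceeded E2 by 0.44 ± 0.13, interval 0.16 to 0.73 (adjusted p = 0.270), and both Dex+E2 arrays lay above both E2 arrays, as did those of 21.4% of all probe sets. The outer hormone groups differed: Per1 was lower with E2 than with Dex by a difference of -0.69 ± 0.13 (adjusted p = 0.0483), with both E2 arrays below both Dex arrays, as for 21.9% of all probe sets. That call sat close to the threshold. Its value lay between -0.76 and -0.61 in 17 alternatives, and it was lost in 7 of them: without untreated replicate 1 or 2 (adjusted p = 0.0710 each), Dex replicate 1 (0.568) or 2 (0.212), E2 replicate 1 (0.164) or 2 (0.397), and with arrays centred on their medians (-0.66, adjusted p = 0.0505).

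The response of Per1 to Dex depended on E2. Dex raised it by 2.66 without E2, while the Dex difference in cells that also had E2 was 0.44. Read the other way, the E2 difference was -0.24 in cells with Dex and 1.97 without. The interaction of the hormones, taken as the Dex difference in the presence of E2 minus that in its absence, was -2.21 ± 0.18 log2 units with a 95% interval from -2.62 to -1.81 (limma, Benjamini-Hochberg adjusted p = 0.00949). It was the only probe set called for the interaction in that fit, 1 of 45037 or 0.00222%, and it ranked 1 by p; with a trended and robust prior 6 probe sets were called. The interaction is a departure from additive log2 changes. It takes in the untreated arrays, whose titles name no vehicle. A Dex+E2 difference smaller than the single differences added together was also seen in the genes most like Per1, given below. On the unlogged scale the mean Per1 signal was 515 with Dex+E2, 607 with Dex, 377 with E2 and 96.5 in untreated cells, so the gain with both, 419, was below the gain with Dex alone, 510, and below the sum of the single gains, 791.

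The size of this interaction ranged from -2.37 to -2.05 in 16 alternatives. The call was lost when untreated replicate 2 (adjusted p = 0.122), Dex replicate 1 (0.170) or 2 (0.0958), or E2 replicate 1 (0.0973) or 2 (0.0645) was left out, each of which leaves a group with 1 array that is assumed to vary like the others. In those 5 fits limma called 0 probe sets for the interaction, against 1411 to 3441 at an unadjusted p under 0.05. Without Dex+E2 replicate 1, Per1 kept the call and 29 probe sets were called.

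**Figure D2:**
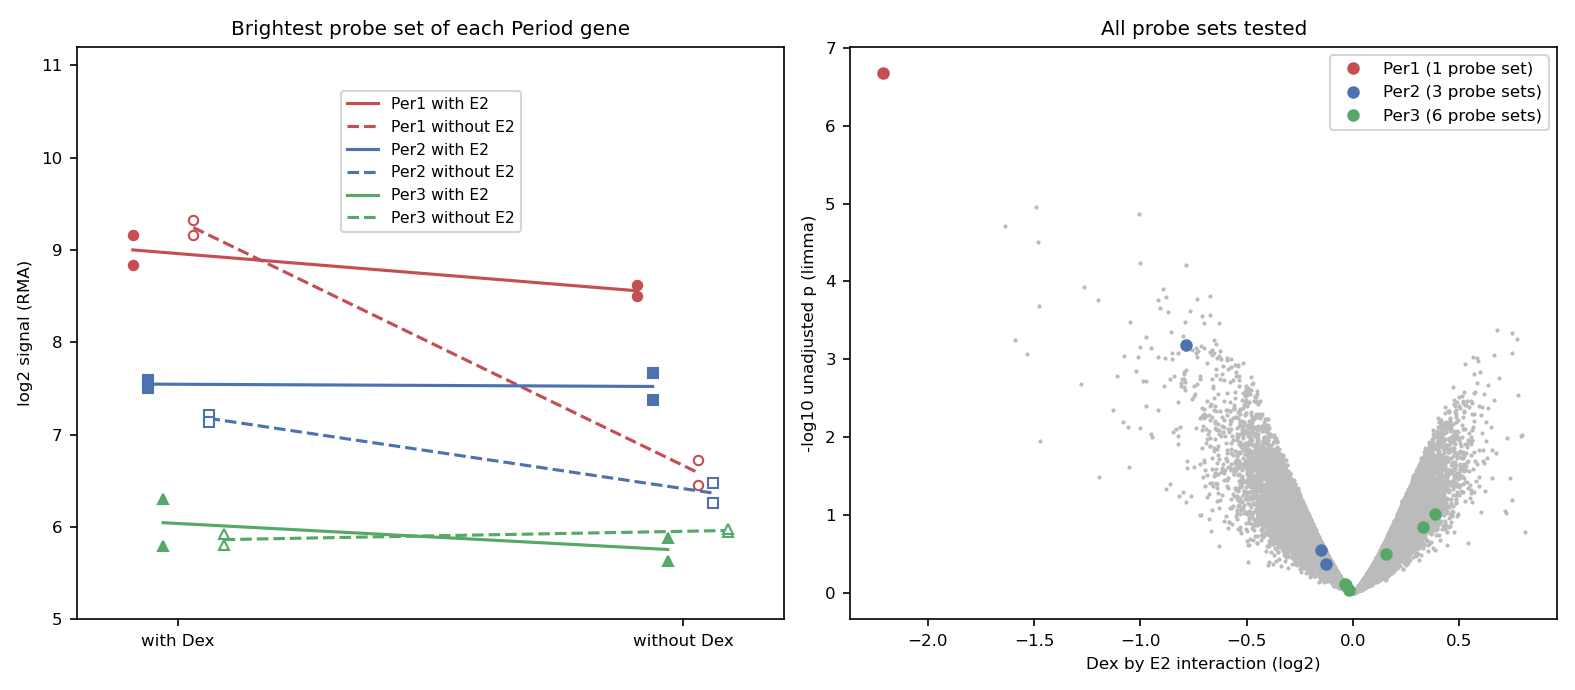
Left, log2 signal of the brightest probe set of Per1, Per2 and Per3 with and without Dex; filled symbols and solid lines are cells with E2, open symbols and dashed lines cells without E2, points are arrays, shifted sideways so that none is hidden, and lines join group means (n = 2). Right, the Dex by E2 interaction (x axis, log2) against -log10 of its unadjusted limma p (y axis) for all 45037 probe sets. Per1 has the lowest interaction, -2.21, and Per2 probe set 1417602_at lies at -0.78.

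Per2, the family member whose loss most disturbs rhythms in mice, was higher with each hormone through 1 of its 3 probe sets. The signals of 1417602_at, the brightest, were 7.21 and 7.14 with Dex, 7.38 and 7.66 with E2, 7.51 and 7.59 with Dex+E2, and 6.48 and 6.26 in untreated cells. The hormone-treated arrays all lay above both untreated arrays, as for 17.2% of all probe sets with Dex, 16% with E2 and 16.6% with Dex+E2. The E2 and Dex+E2 arrays also lay above both Dex arrays, as did 18% of all probe sets for E2 and 15.2% for Dex+E2. Per2 rose by 0.81 ± 0.12 with Dex (1.75-fold; limma, Benjamini-Hochberg adjusted p = 0.00655), by 1.16 ± 0.12 with E2 (2.23-fold; adjusted p = 0.00944) and by 1.18 ± 0.12 with Dex+E2 (2.27-fold; adjusted p = 0.000659). By size of increase it stood at rank 163, 12 and 67 of all probe sets in those comparisons.

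The order of Per2 differed from that of Per1, with E2 above Dex. The means of 1417602_at were 7.55 ± 0.059 with Dex+E2, 7.52 ± 0.20 with E2, 7.18 ± 0.053 with Dex and 6.37 ± 0.15 in untreated cells (SD, n = 2 each). The difference of E2 from Dex was 0.35 ± 0.12, interval 0.09 to 0.60, and did not pass (limma, Benjamini-Hochberg adjusted p = 0.460), so E2 and Dex are not separated by this test. Nor did Dex+E2 pass against Dex, 0.37 ± 0.12 with an interval from 0.11 to 0.63 (adjusted p = 0.996), or against E2, 0.03 ± 0.12 with an interval from -0.23 to 0.28 (adjusted p = 0.952). The interaction was -0.78 ± 0.16, in the same direction as for Per1, at an unadjusted p of 0.000661 and an adjusted p of 0.669. It was rank 34 of all probe sets by p. Whether Per1 and Per2 differ from each other in their relative response to E2 and Dex was not tested.

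The other Per2 probe sets gave smaller values. Probe set 1417603_at, designed from the same sequence record as 1417602_at, read 5.24 and 5.53 with Dex, 5.65 and 5.66 with E2, 5.56 and 5.69 with Dex+E2, and 5.28 and 5.30 in untreated cells. Its E2 and Dex+E2 arrays lay above the untreated ones, which holds for 16% and 16.6% of all probe sets, while its Dex arrays fell on either side of them. The differences were 0.10 with Dex, 0.37 with E2 and 0.34 with Dex+E2, and none was called (adjusted p = 1, 0.692 and 0.351). Without adjustment the limma p was 0.00607 with E2 (95% interval 0.13 to 0.60) and 0.00958 with Dex+E2 (0.10 to 0.58). An unadjusted p under 0.05 was found for 5.42% and 8.16% of all probe sets in those comparisons. Its E2 level exceeded Dex by 0.27 (limma, unadjusted p = 0.0292, adjusted p = 0.592). Probe set 1457350_at, designed from another record, stayed between 6.40 and 6.65 on all arrays, with differences of 0.05, 0.18 and 0.08 that were not called (adjusted p = 1, 0.933 and 0.883). Which transcripts of Per2 each probe set reads was not tested.

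Some Per2 calls were lost under other settings. With the mean of its 3 probe sets the Dex difference was 0.32 (limma, Benjamini-Hochberg adjusted p = 0.1145). The Dex call was also lost without untreated replicate 2 (0.70, adjusted p = 0.112), Dex replicate 1 (0.77, adjusted p = 0.116) or Dex replicate 2 (0.85, adjusted p = 0.0647). The E2 call was lost without untreated replicate 1 (1.26, adjusted p = 0.0966), untreated replicate 2 (1.05, adjusted p = 0.238) or E2 replicate 2 (1.01, adjusted p = 0.1485). The E2 difference with the mean of the 3 probe sets was 0.57 and kept its call, and the Dex+E2 call was kept in all 17 alternatives.

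Per3, the third family member, had no probe set called in any comparison. The brightest, 1421086_at, read 5.92 and 5.80 with Dex, 5.63 and 5.88 with E2, 5.79 and 6.30 with Dex+E2, and 5.94 and 5.98 in untreated cells. Its Dex arrays and its E2 arrays lay below both untreated ones, as for 17.5% and 18.9% of all probe sets. Its Dex+E2 arrays lay on both sides of the untreated pair. The differences from untreated were -0.10 ± 0.15 with Dex, -0.21 ± 0.15 with E2 and 0.08 ± 0.15 with Dex+E2, with 95% intervals from -0.43 to 0.24, -0.54 to 0.13 and -0.25 to 0.42 (limma, Benjamini-Hochberg adjusted p = 1, 0.952 and 0.936). These intervals do not reach the increases seen for Per1 or for Per2 probe set 1417602_at under the same treatment. The mean signal of 1421086_at lay at percentile 54.6 of all probe sets. RMA compresses changes of dim probe sets, so the sizes of changes in different probe sets are not directly comparable.

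The 5 other Per3 probe sets, 1460662_at, 1442243_at, 1421087_at, 1458176_at and 1441445_at, had means over all arrays between 4.58 and 5.67, at percentiles 29.5 to 50.6 of all probe sets. Array signals at such levels can include background, and no detection calls were used here, so a small change in a scarce transcript may be missed. Against untreated, probe set 1441445_at had the largest of their differences, 0.33 ± 0.15 with Dex+E2 (limma, unadjusted p = 0.0489, Benjamini-Hochberg adjusted p = 0.610). Its Dex+E2 arrays read 4.57 and 5.09, against 4.56 and 4.45 in untreated cells, so the difference came mostly from Dex+E2 replicate 2. Without Dex+E2 replicate 1 it was 0.59 and was called (adjusted p = 0.0227), as were its differences of Dex+E2 from Dex, 0.65 (adjusted p = 0.0459), and from E2, 0.53 (adjusted p = 0.0320). Per3 probe set 1421086_at was likewise called in Dex+E2 against E2 when that array was left out (0.55, adjusted p = 0.0409), which leaves Dex+E2 replicate 2, the array that stood apart, as the group's only array.

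**Figure D3:**
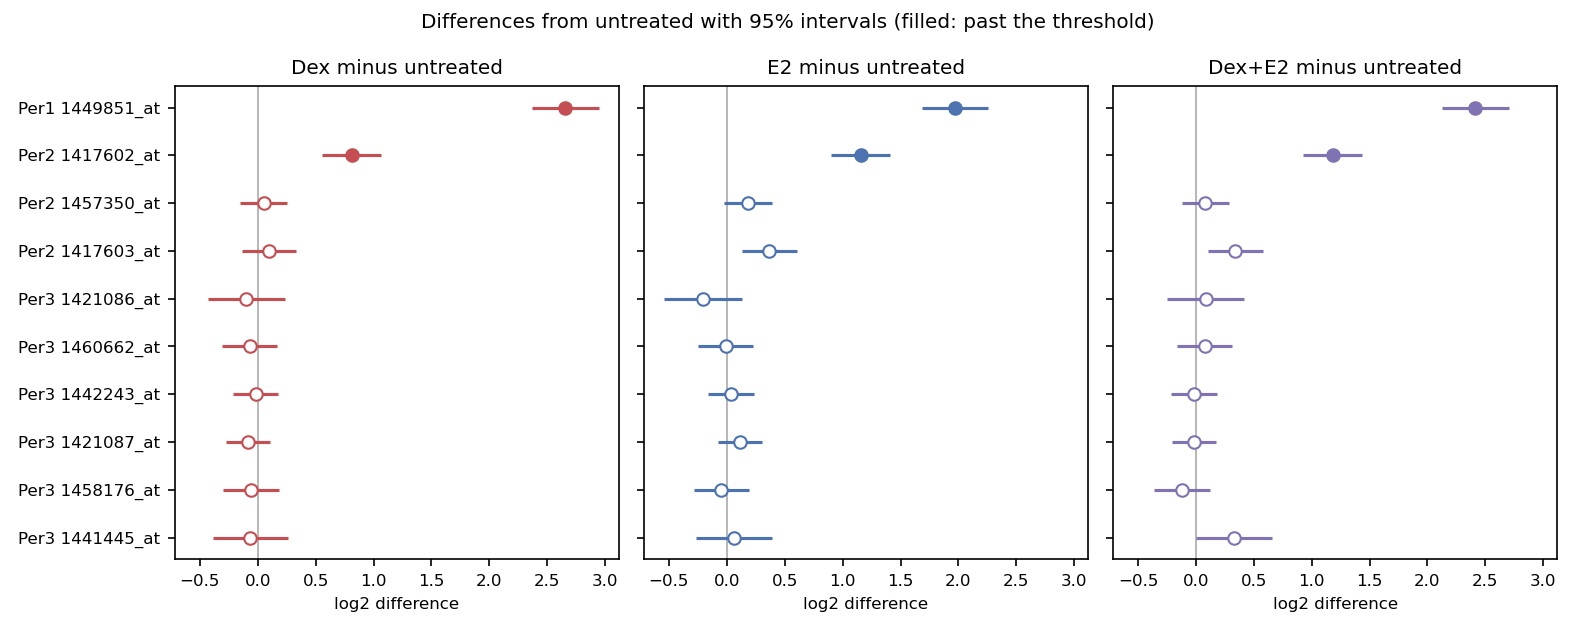
Log2 difference from untreated (x axis) of the 10 Period probe sets, with 95% intervals from limma as bars, for Dex, E2 and Dex+E2 from left to right; filled points passed the threshold. Per1 and Per2 probe set 1417602_at are the 2 filled points in every panel, and no Per3 point is filled; of the Per3 intervals, that of 1441445_at with Dex+E2 lies just above 0.

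Against untreated, 2 of the 10 Period probe sets were called higher and 0 lower with Dex, where 0.924% of all probe sets were called in either direction. The same 2 were called with E2, where 0.0355% of all probe sets were called, and with Dex+E2, at 0.844%. Between hormone groups, 0 of 10 were called for Dex+E2 against Dex (background 0.00666%) and 0 of 10 for Dex+E2 against E2 (0.335%). Without adjustment, limma p-values under 0.05 were found for 3 and 1 of them, against 4.66% and 11.8% of all probe sets. For E2 against Dex 1 of 10, the Per1 probe set, was called lower (0.675%). The median difference of the 10 probe sets was -0.04 with Dex, 0.09 with E2 and 0.08 with Dex+E2, beside 0.00, -0.01 and 0.00 over all probe sets. The Period counts rest on Per1 and 1 Per2 probe set and say nothing about the family as a whole.

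The other clock genes were each read through their brightest probe set, and 1 of them, Nfil3, was called against untreated. They came from lists of activators (such as Clock and Arntl, which encodes BMAL1), other repressors (Cry1, Cry2), clock nuclear receptors (Nr1d1, Rora), D-box output factors (Dbp, Nfil3), and the kinases and ubiquitin ligase parts that act on clock proteins (Csnk1d, Btrc). Values are given for 25 such genes. With Dex 1 of 25 was called higher and 0 lower, against 1.29% of 18193 genes called. With E2 0 of 25 were called by limma, against 0.066% of genes. With Dex+E2 1 was higher and 0 lower, against 1.19%. An unadjusted limma p under 0.05 was found for 5 of the 25 with Dex, 5 with E2 and 2 with Dex+E2. The shares of all genes were 5.89%, 5.5% and 7.78%. The called gene was Nfil3, which encodes a repressor that binds D-boxes, and any action of it on Per3 was not tested. It rose by 1.27 ± 0.13 with Dex (limma, Benjamini-Hochberg adjusted p = 0.000869) and by 1.06 ± 0.13 with Dex+E2 (adjusted p = 0.00320), while its E2 difference was 0.11 ± 0.13 (adjusted p = 0.978). The medians of the 25 genes were 0.03, 0.04 and 0.04 with Dex, E2 and Dex+E2, beside 0.00, -0.01 and 0.01 over all genes. The activators had 0 of 4 called in each of these comparisons, and the kinases and ligase parts 0 of 7.

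**Figure D4:**
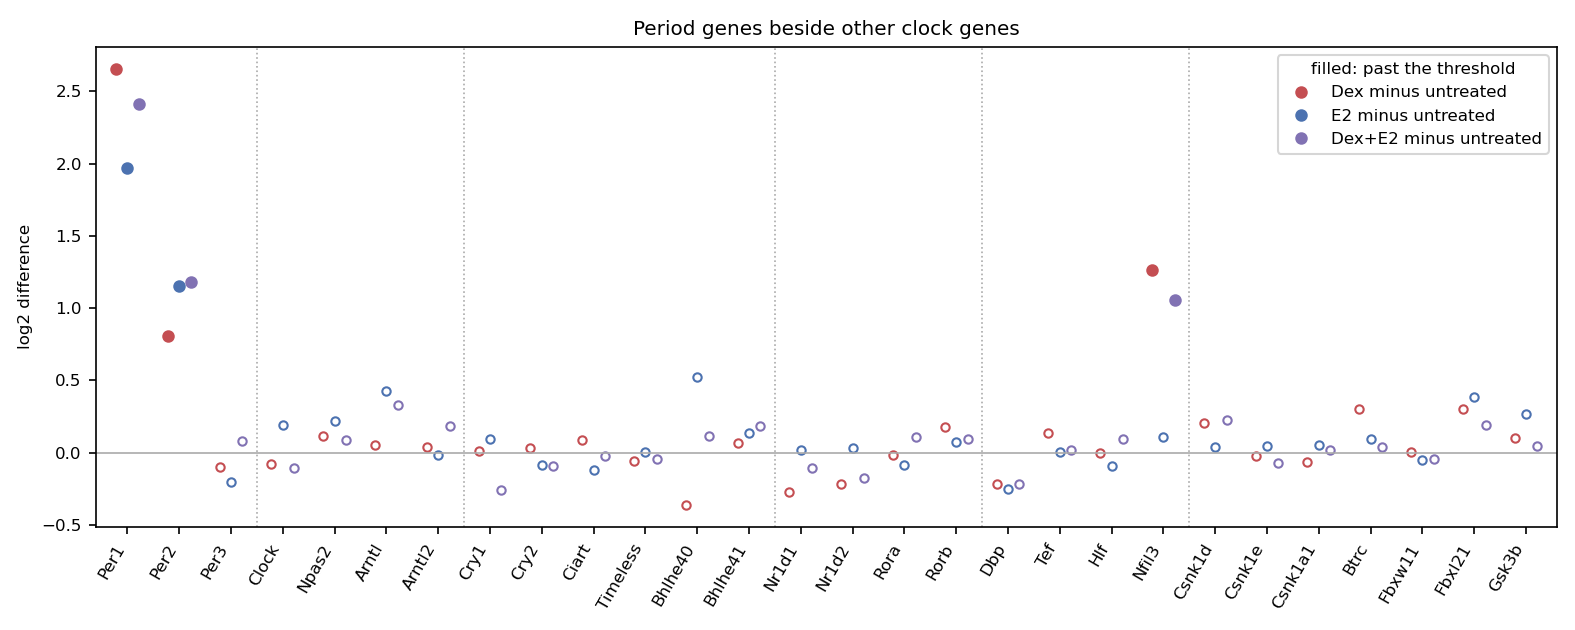
Log2 difference from untreated (y axis) of the brightest probe set of the 3 Period genes and of 25 other clock genes (x axis), with dotted lines between activators, repressors, nuclear receptors, outputs, and kinases or ubiquitin ligase parts; filled points passed the threshold. Per1, Per2 and Nfil3 hold all the filled points, and Nfil3 has none for E2.

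Genes whose signal followed that of Per1 most closely were sought by Pearson correlation over the 8 arrays, among 451 genes whose group means spanned at least 0.5 log2 units. The 5 closest were Sh3bp2, a signalling adaptor, at 0.987, Arrdc2, an arrestin-domain gene, at 0.970, Plin4, a lipid droplet coat gene, at 0.962, the transcription factor gene Klf9 at 0.959, and Trim24, a cofactor of nuclear receptors, at 0.958. Sh3bp2 was 1.12 above untreated in Dex cells, 0.80 in E2 cells and 1.05 in Dex+E2 cells, which has the order of groups of Per1 at smaller size, as has Trim24. In Arrdc2, Plin4 and Klf9 the Dex+E2 mean lay above the Dex mean instead. The differences of Arrdc2 from untreated were 2.23 with Dex+E2, 2.10 with Dex and 1.61 with E2. For Per2 probe set 1417602_at the 5 closest were the co-chaperone gene Dnajb4 at 0.972, the corepressor gene Nrip1 at 0.927, the endosomal trafficking gene Ehd4 at 0.923, Glt28d2 at 0.910 and Prag1 at 0.909. Dnajb4 was 0.73 above untreated in Dex cells, 0.88 in E2 cells and 0.91 in Dex+E2 cells, the order of Per2. Ehd4, Glt28d2 and Prag1 shared that order and Nrip1 did not. In every gene named here the Dex+E2 difference was smaller than the Dex and E2 differences added together, as in Per1 and Per2. None of these named genes was called for the interaction in the main fit. The points of each correlation are the same 8 arrays and share their groups, and the genes were picked for these values. Per1 and Per2 probe set 1417602_at correlated at 0.852 over the 8 arrays, Per1 and Per3 probe set 1421086_at at -0.16. The group means of Per3 spanned under 0.5 log2 units, so no such genes were sought for it.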

How the data were processed

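Expression was measured on 8 Affymetrix mouse arrays, 2 per group, with groups and replicate numbers from the sample titles. The authors deposited log2 values for 45101 probe sets, made with RMA in Affymetrix Expression Console per the submitters' processing notes, which give no version. RMA subtracts background, equalises arrays and combines probes, which compresses changes of dim probe sets. A GR-ChIP is named in the free text of 2 arrays, E2 replicate 2 and Dex+E2 replicate 1, which were kept in the expression groups that their titles give.

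After 64 control probe sets were left out, 45037 were fitted by group (limma 3.58.1, R 4.3.3) on 8 arrays (4 residual and 6.29 prior degrees of freedom), with Benjamini-Hochberg adjustment over all probe sets within each of 7 comparisons. The median standard error of a Dex difference was 0.102, and the number of arrays limits precision. The script was tested on simulated data. The platform annotation gave 34945 probe sets 1 symbol, 932 several and 9160 none listed. Alternatives changed the arrays in the fit, the prior, the probe sets tested, the scaling and the replicate block. Period probe sets were all given, clock genes named if called against untreated, and the 5 most correlated genes named for Per1 and Per2. Members and lists were chosen with earlier results of these data known.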

Additional observations from a re-analysis of the deposited data

Results flagged for a closer look

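The effect of Dex on Per1 differed between cells with and without E2. The Dex difference in the presence of E2 minus that in its absence was -2.21 log2 units for the Per1 probe set by the interaction test (limma, Benjamini-Hochberg adjusted p = 0.00949), from 0.44 with E2 and 2.66 without. It stands here because the difference between both effects was itself tested and passed. The difference ranged from -2.37 to -2.05 in 16 alternatives, and its call was lost in 5 of them, each without 1 array. Groups of 2 arrays are too small to tell which array is outlying.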

How the results depend on the processing

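The Per1 differences from untreated kept direction and call in 17 alternatives each, and the Per3 differences of its brightest probe set were called in 0 of 51. No called value changed direction. The Per2 differences of its brightest probe set from untreated were called in 44 of 51. The Period results other than those of the 3 brightest probe sets against untreated gave 894 alternative values. Of these, 12 lost and 4 gained a call, all named in the report, and 44 values that were not called changed sign.

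Left-out arrays moved the Per2 difference between 0.70 and 0.92 with Dex and between 1.01 and 1.30 with E2, and the calls lost are named in the report. They moved the number of probe sets called by limma between 170 and 498 for Dex against untreated (416 with all arrays), 3 and 37 for E2 (16), 169 and 1436 for Dex+E2 (380), 0 and 168 for Dex+E2 against Dex (3), 30 and 1974 for Dex+E2 against E2 (151), 72 and 404 for E2 against Dex (304) and 0 and 29 for the interaction (1). The highest counts for Dex+E2 came without Dex+E2 replicate 1. Where a count was 0, 1082 to 3441 probe sets had an unadjusted p under 0.05.

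With only the groups compared in the fit, 222 probe sets were called for Dex+E2, 0 for Dex+E2 against Dex and 16 for Dex+E2 against E2. A trended and robust prior gave 46 for E2, 5 for Dex+E2 against Dex and 6 for the interaction. With only probe sets above the median level 0 were called for Dex+E2 against Dex, and quantile normalization again gave 25 for E2. The brightest probe set of each gene gave 267 genes for Dex. The mean of each gene's probe sets gave 269 for Dex, 237 for Dex+E2, 100 for Dex+E2 against E2 and 185 for E2 against Dex, with Per2 at 0.32 for Dex. These last 2 settings and that of probe sets above the median level test fewer features, and the cause of the shifts was not tested. Deviations of same-numbered arrays correlated at 0.16, 0.31 and 0.23 between the groups other than Dex+E2, and at -0.25, -0.11 and -0.19 between Dex+E2 and untreated, Dex and E2. Since not every pair was over 0.1 and no label states a pairing, the numbers were not taken to pair the arrays. With the replicate block 372 probe sets were called for Dex against untreated, 15 when E2 was tested and 338 with both hormones, and no Period call changed.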

Other observations

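Bhlhe40, which encodes DEC1, a repressor that competes for E-boxes, was chosen after its values were seen. Its mean log2 signal was 10.02 with E2 and 9.13 with Dex, with 9.61 for Dex+E2 and 9.49 in untreated cells. E2 exceeded Dex by 0.89 ± 0.11 (limma, Benjamini-Hochberg adjusted p = 0.00533), while neither hormone passed against untreated (0.53 with E2, adjusted p = 0.372, and -0.36 with Dex, adjusted p = 0.395).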
